A study of Mus musculus with 5 samples.

Results

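Circular RNAs (circRNAs) of 10 piRNA pathway genes were described in mouse testis after triptolide, a diterpenoid of the plant Tripterygium wilfordii. The members are all circRNAs whose deposited gene symbol is Piwil1, Piwil2, Mov10l1, Ddx4, Tdrd1, Tdrd5, Tdrd6, Tdrd9, Mael or Asz1. There were 33 of them among 11957 circRNAs, and 8 of the 10 genes hosted at least 1. The triptolide group received a daily dose of 50 µg per kg by gavage, and the control group received saline. Both groups were male C57BL/6J mice (strain C57/BL6J in the sample labels) aged 10 weeks, with 6 mice in each group, and testes were taken at day 35. The data hold 3 triptolide libraries and 2 control libraries. Nothing in the labels says how many animals went into a library, so a p-value here reflects only how much these libraries differ, which may be technical.

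piRNAs are small RNAs of the germ line that guide PIWI proteins to transposon transcripts and other RNAs. In the mouse testis they are made from long precursors in cytoplasmic germ granules, by helicases, tudor-domain scaffolds and proteins anchored on mitochondria. Male mice that lack a gene of this pathway typically arrest during spermatogenesis. A circRNA is a loop joined by back-splicing, in which the end of a later exon is spliced to the start of an earlier one of the same gene, and it is recognised by reads across that junction.

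The level of a circRNA was deposited as SRPBM, junction reads relative to all mapped reads, cut down to a whole number, and values below are SRPBM unless reads are named. Nearly every value equalled a whole number of reads times a fixed worth of 1 read, which was 9.57, 8.86 and 8.71 SRPBM in triptolide libraries and 8.80 and 8.29 SRPBM in control libraries. The smallest value above 0 stood for 2 reads. The column headings give the 3 triptolide libraries the same replicate number, so they are called A, B and C here. Junction reads over all circRNAs numbered 32806, 44319 and 35323 in triptolide A, B and C, and 39999 and 43680 in control 1 and 2. Among circRNAs with 5 or more reads in each of the other 4 libraries, 19 of 792 (2.40%), 11 of 734 (1.50%) and 21 of 788 (2.66%) were listed at 0 in triptolide A, B and C. In control 1 the number was 142 of 896 (15.8%), and in control 2 it was 13 of 738 (1.76%). Control 1 therefore stands apart in its zeros. No source used here says what a 0 stands for, so a 0 is called "listed at 0".

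**Figure D1:**
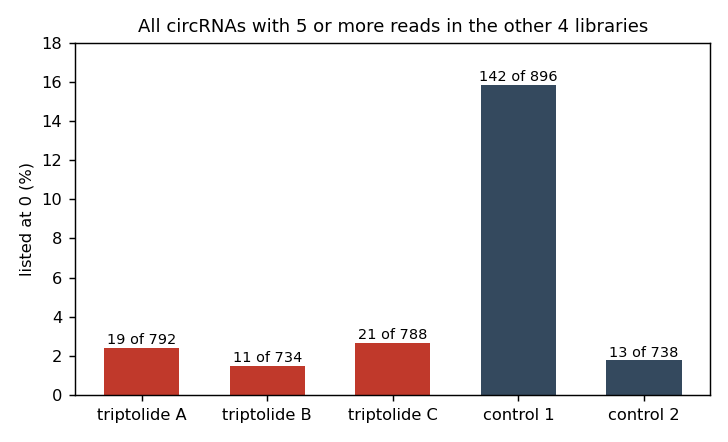
Share of well-covered circRNAs that each library lists at 0 (y axis, percent), counted over circRNAs with 5 or more reads in all the other libraries. Bars for triptolide A, B and C lie between 1.50% and 2.66%, control 1 stands at 15.8% and control 2 at 1.76%.

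The labelled tissue was checked against host genes of known testis cell types. Of 7 genes listed for spermatocytes 6 had circRNAs, namely Hormad1, Meiob, Spag6, Spo11, Sycp1 and Sycp2. They summed to 2263, 2430 and 2077 SRPBM in triptolide A, B and C and to 2309 and 2959 SRPBM in control 1 and 2. The groups overlapped, and no sum was taken without Spag6. Of 8 listed spermatid genes 4 had circRNAs, which summed to 684, 1143 and 639 SRPBM in triptolide libraries and 1351 and 1178 SRPBM in control libraries. The spermatid sum was lower in every triptolide library. Without Prm2, whose protein packs sperm DNA, the sums were 598, 1064 and 587 SRPBM in triptolide libraries and 648 and 888 SRPBM in control libraries, and the groups overlapped. Of 4 spermatogonial genes 1, Zbtb16, had a circRNA, with 19 SRPBM in triptolide A alone, and of 3 macrophage genes 1, Adgre1, had circRNAs, with 43 SRPBM in triptolide B and 17 SRPBM in control 1. No circRNA was listed for the Sertoli cell, Leydig cell, endothelial or smooth muscle markers. The part of cell composition in the results that follow was not tested, and in whole testis fewer cells of a type and less RNA per cell cannot be told apart.

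The 33 circRNAs together overlapped in level between the groups. Their summed SRPBM was 865, 766 and 985 in triptolide A, B and C, and 730 and 962 in control 1 and 2. The groups overlapped, with means of 872 ± 109.7 SRPBM in triptolide libraries (SD, n = 3) and 846 ± 164 SRPBM in control libraries (SD, n = 2). Those values rested on 91, 87 and 114 junction reads in triptolide libraries and 84 and 117 reads in control libraries. As a share of the summed SRPBM of the library they made up 0.277%, 0.197% and 0.322% in triptolide libraries and 0.209% and 0.268% in control libraries. The number of member circRNAs above 0 was 14, 13 and 16 in triptolide libraries and 13 and 16 in control libraries.

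Most of the 33 were seen in a single library. There were 20 circRNAs (60.6%) above 0 in 1 library only, against 54.4% of all circRNAs, and those 20 had 2 to 9 reads each. At the other end, 7 (21.2%) were above 0 in all 5 libraries, against 11.7% of all circRNAs. By group, 12 (36.4%) were above 0 only in triptolide libraries, 10 (30.3%) only in control libraries and 11 (33.3%) in both. Over all circRNAs those shares were 36.7%, 25.1% and 38.2%. Of the 20 seen once, 10 were in triptolide libraries (4, 1 and 5 in A, B and C) and 10 in control libraries (4 and 6 in control 1 and 2).

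By median the hosts had more circRNAs than hosts in general, and the single circRNAs were ordinary in level. The 8 hosts had a median of 5 circRNAs each, against 2 over all 3496 hosts. Piwil2, Mael and Asz1 had 1 circRNA each. Piwil1 and Tdrd6 had none and are outside these medians, and gene length was not taken into account. Their median host level, the mean summed SRPBM over the 5 libraries, was 54.3 against 17.4 over all hosts. The median level of a single circRNA was 6.8 SRPBM for the members and 7.6 SRPBM over all circRNAs, with or without a host. Member circRNAs spanned 1100 to 43037 bases of genome between their ends, introns included, with a median of 15404 bases against 16117 over all.

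**Figure D2:**
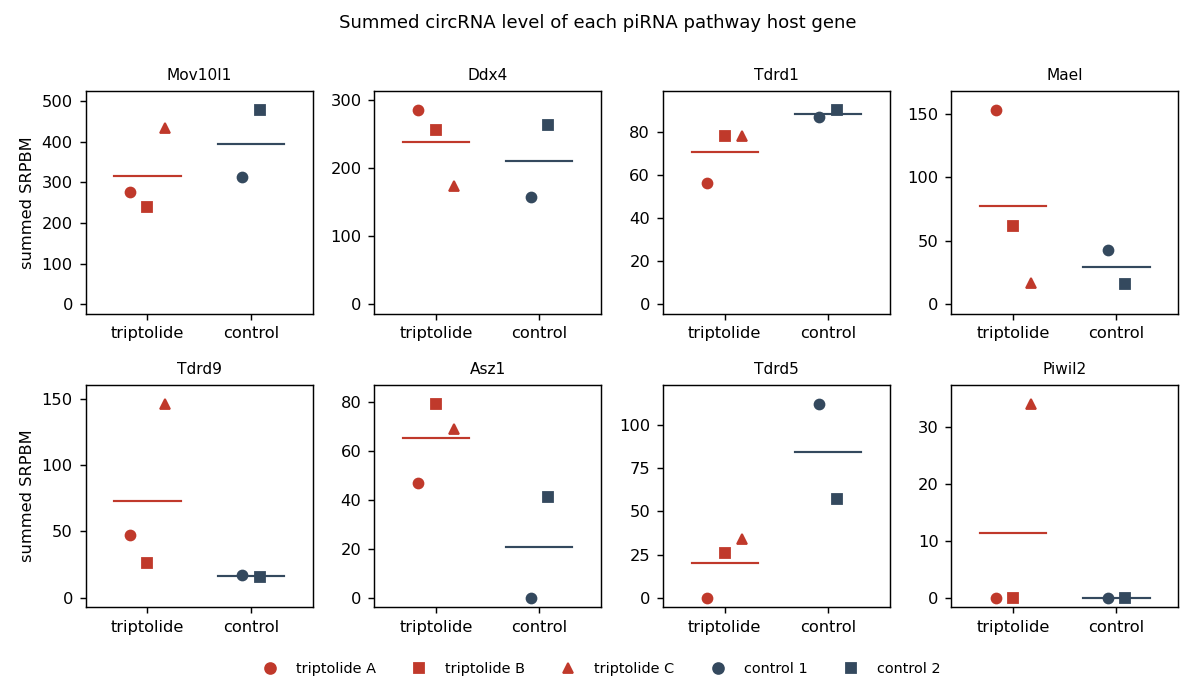
Summed SRPBM of all circRNAs of each host (y axis, linear), with 1 point per library, triptolide left of control, and a horizontal line at each group mean. Mov10l1 and Ddx4 lie above 150 SRPBM in every library, Tdrd9 and Asz1 are higher and Tdrd5 and Tdrd1 lower in all triptolide libraries, and Piwil2 is above 0 in triptolide C alone.

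No member passed the test between groups. Of 5457 circRNAs above 0 in at least 2 libraries, limma on log2(SRPBM + 16) called 0 at an adjusted p under 0.05 (0% of those tested), and 360 (6.6%) had an unadjusted p under 0.05. Of the 33 members 13 were tested, and 0 of these had an unadjusted p under 0.05. edgeR's quasi-likelihood test on the reads recovered from the values also called 0 circRNAs, with 123 (2.25%) at an unadjusted p under 0.05. On host totals limma called 0 of 2342 hosts (0%), with 147 (6.28%) at an unadjusted p under 0.05, and 0 of the 7 member hosts tested were among them. edgeR on the reads of hosts called 0 as well, with 90 (3.84%) at an unadjusted p under 0.05 and 0 members among them. The median log2 fold change over all tested circRNAs was -0.06, and 2496 of the 5457 were above 0. Of the 13 tested members 7 were above 0, but 2 of these, both of Tdrd9, were at 0 in both control libraries. Those 2 entered the test through triptolide libraries alone, so no median is given for the 13. A fold change on this scale understates the change of a low circRNA.

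Overlap of the groups was read against the same count over all circRNAs. Every triptolide library lay above every control library for 2 of the 13 tested members, against 6.78% of all tested circRNAs. In both, from Asz1 and Ddx4, triptolide A and control 2 hold the same number of reads. Every triptolide library lay below both control libraries for 0 of the 13, against 10.5%. Of the 7 tested host totals 2 were higher in every triptolide library, against 7.13% of all hosts, and 2 were lower, against 11.5%. None of these 4 counts includes a member with an adjusted p under 0.05.

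The PIWI proteins had hardly any circRNA. Piwil2 encodes MILI, a PIWI protein that binds piRNAs from the fetal germ line onwards. Its only circRNA, at chromosome 14 from 70420640 to 70422982, had 34 SRPBM in triptolide C, from 4 reads, and was listed at 0 in triptolide A and B and in both control libraries. It was too sparse to be tested. No circRNA was listed for Piwil1, which encodes MIWI, the PIWI protein of meiotic and round spermatid cells, nor for Tdrd6, a tudor protein of the chromatoid body. These are the shortest genes of the 10 in RefSeq, at 19404 bases for Piwil1 and 16513 bases for Tdrd6. The 8 hosts are 37360 to 97367 bases long. Over all protein-coding genes the share with a circRNA was 5.66% for lengths of 10000 to 20000 bases (222 of 3923), 17.7% for 20000 to 50000 bases (902 of 5093) and 35.7% for 50000 to 100000 bases (899 of 2516). Whether gene length bears on the lack of Piwil1 and Tdrd6 circRNAs was not tested.

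Mov10l1 had the highest circRNA level of the 10 genes. It encodes the RNA helicase that binds piRNA precursors and starts their processing. Summed over its 6 circRNAs, the level was 277, 239 and 434 SRPBM in triptolide A, B and C, and 314 and 478 SRPBM in control 1 and 2. Both groups spread widely and overlapped, with 317 ± 103 SRPBM in triptolide libraries (SD, n = 3) and 396 ± 116 SRPBM in control libraries (SD, n = 2). The log2 fold change was -0.32 ± 0.36 (SE), with an adjusted p of 0.90 by limma. By mean level Mov10l1 ranked 170 of 3496 hosts.

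A single Mov10l1 circRNA carried most of that level. It lies on chromosome 15 from 89018150 to 89026636, and had 220, 124 and 339 SRPBM in triptolide A, B and C and 228 and 323 SRPBM in control 1 and 2. Triptolide C and control 2 were both high and triptolide B was the lowest, so the spread within the groups exceeded the distance between them. The reads behind those values were 23, 14 and 39 in triptolide libraries and 26 and 39 in control libraries. limma gave a log2 fold change of -0.34 ± 0.45 (SE) with an adjusted p of 0.95, and by mean level this circRNA ranked 168 of 11957.

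The other Mov10l1 circRNAs used the same few junction ends. All 6 were built from 3 upstream and 3 downstream ends, and each of the 6 shared an end with another. The circRNA from 89003919 to 89026636, which ends where the leading one does, had 38, 62 and 52 SRPBM in triptolide libraries and 43 and 41 SRPBM in control libraries. That from 89018150 to 89046956, which starts where the leading one does, had 19, 53 and 17 SRPBM in triptolide libraries and 43 and 16 SRPBM in control libraries. Groups overlapped for both, with adjusted p of 0.99 by limma for each. The remaining 3 were each above 0 in 1 library, and the one from 89003919 to 89007673 had 74 SRPBM from 9 reads in control 2, the highest of the 20 seen once. Ends shared within a host were usual: 22 of 30 members from hosts with several circRNAs (73.3%) shared an end, against 7059 of 8670 (81.4%) over all such hosts.

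**Figure D3:**
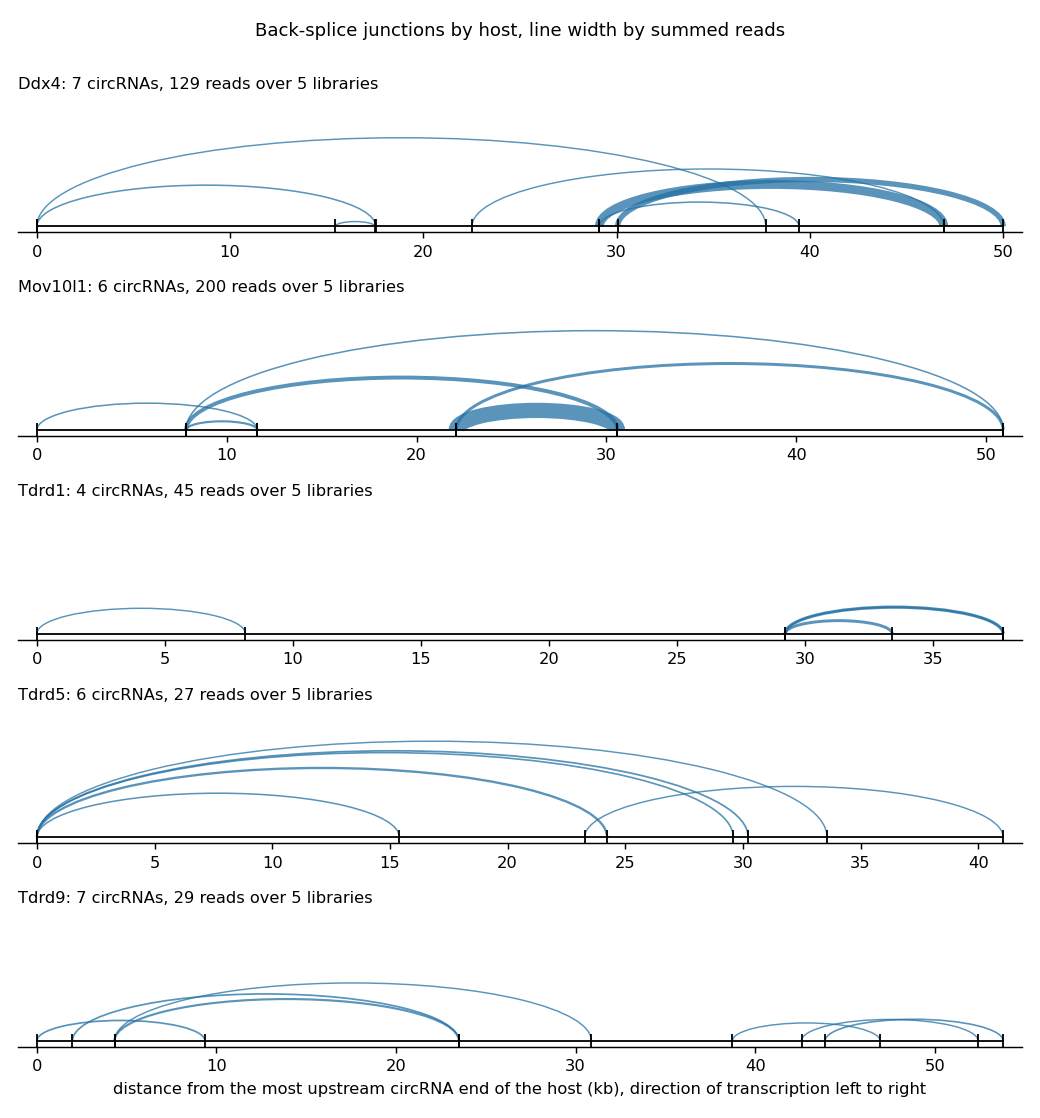
Map of the member circRNAs by host, for the 5 hosts with several, each drawn as an arc between its ends (x axis, kilobases from the most upstream end of the host, in the direction of transcription), with line width following the reads summed over 5 libraries. Mov10l1 circRNAs meet at 3 upstream and 3 downstream ends, and 5 of 6 Tdrd5 circRNAs begin at the same end.

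Ddx4 was the second most abundant host, with 7 circRNAs. It encodes the mouse vasa homologue, a DEAD-box helicase of germ granules. The host total was 285, 256 and 173 SRPBM in triptolide A, B and C, and 157 and 264 SRPBM in control 1 and 2. Each group had a low library, and the groups overlapped at 238 ± 58.1 SRPBM in triptolide libraries (SD, n = 3) and 210.5 ± 75.7 SRPBM in control libraries (SD, n = 2). By limma this was a log2 fold change of 0.18 ± 0.38 (SE), with an adjusted p of 0.97.

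The leading Ddx4 circRNA, on chromosome 13 from 112604487 to 112622307, had 153, 115 and 104 SRPBM in triptolide A, B and C and 105 and 190 SRPBM in control 1 and 2. Control 2 was the highest and control 1 was level with triptolide C, and the adjusted p was 0.99 by limma. The next, from 112601412 to 112621360, had 66, 115 and 69 SRPBM in triptolide libraries and 52 and 58 SRPBM in control libraries. All triptolide libraries lay above both control libraries for it in SRPBM. The reads were 7, 13 and 8 in triptolide libraries and 6 and 7 in control libraries. Triptolide A and control 2 thus both rest on 7 reads and differ only in the worth of 1 read. Its log2 fold change was 0.45 ± 0.46 (SE), with an unadjusted p of 0.36 and an adjusted p of 0.88 by limma. The other 5 Ddx4 circRNAs were each above 0 in 1 library at 16 to 28 SRPBM, 4 in triptolide libraries and 1 in a control library. The leading circRNA made up 53.7%, 44.9% and 60.1% of the host total in triptolide libraries, and 66.9% and 72.0% in control libraries. That share was lower in all triptolide libraries. No test was run and the same count over all hosts was not made, so nothing is read from it. For Mov10l1 the share of the leading circRNA overlapped, at 79.4%, 51.9% and 78.1% in triptolide libraries and 72.6% and 67.6% in control libraries.

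**Figure D4:**
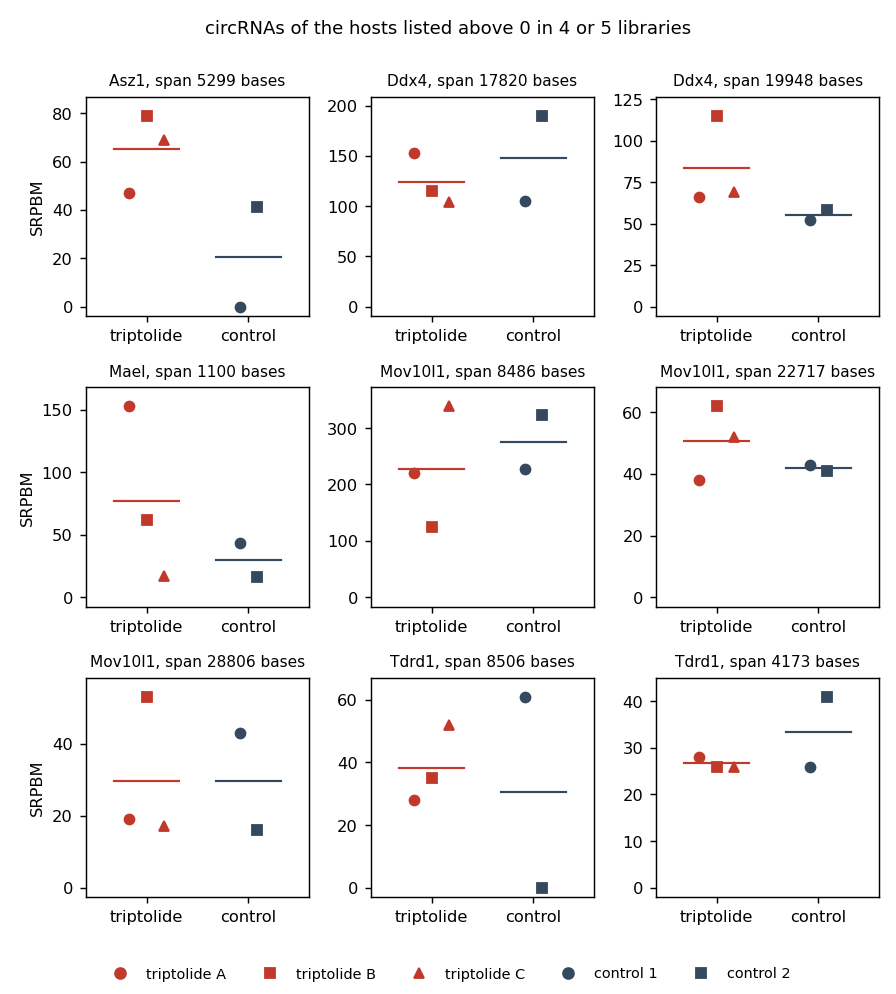
SRPBM (y axis, linear, a separate scale in each panel) of the 9 member circRNAs above 0 in 4 or 5 libraries, 1 point per library, triptolide left of control, with a line at each group mean. The groups do not overlap for the Asz1 circRNA, where control 1 is listed at 0, nor for the Ddx4 circRNA with a span of 19948 bases. In both, triptolide A and control 2 rest on equal reads.

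Among the tudor-domain genes, Tdrd1 had circRNAs in every library and Tdrd5 and Tdrd9 were sparse. Tdrd1 is a scaffold that binds MILI in the cement between mitochondria. Its 4 circRNAs summed to 56, 78 and 78 SRPBM in triptolide A, B and C, and 87 and 90 SRPBM in control 1 and 2. Every triptolide library was below both control libraries, at 70.7 ± 12.7 SRPBM (SD, n = 3) against 88.5 ± 2.1 SRPBM in control libraries (SD, n = 2). limma put the log2 fold change at -0.28 ± 0.47 (SE), with an adjusted p of 0.97, and triptolide A at 56 and control 1 at 87 SRPBM came from 6 and 10 reads.

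Of the Tdrd1 circRNAs, 3 start at 56860266 on chromosome 19. The one that ends at 56864439 had 28, 26 and 26 SRPBM in triptolide libraries and 26 and 41 SRPBM in control libraries, which is 3 to 5 reads in each. The one that ends at 56868772 had 28, 35 and 52 SRPBM in triptolide libraries, and 61 SRPBM in control 1 while it was listed at 0 in control 2. Another, chosen after its values were seen, ends 2 bases earlier at 56868770, and had 0, 17 and 0 SRPBM in triptolide libraries and 0 and 33 SRPBM in control libraries. Control 2, listed at 0 for the first of that pair, held 33 SRPBM of the second. Summed, the pair had 28, 52 and 52 SRPBM in triptolide libraries and 61 and 33 SRPBM in control libraries. The sums overlapped at 44 ± 13.9 SRPBM in triptolide libraries (SD, n = 3) and 47 ± 19.8 SRPBM in control libraries (SD, n = 2). The log2 fold change from limma was 0.61 ± 0.80 (SE) for the circRNA ending at 56868772 alone, and -0.06 ± 0.55 (SE) for the sum. Junctions that differ by at most 10 bases at both ends of 1 host formed 45 pairs in the whole table, with 89 circRNAs (0.744%), and this was the only pair among the members.

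Tdrd5, a tudor protein of the germ granules needed for spermatid development, had lower values in every triptolide library, a difference that did not pass the test. Its 6 circRNAs summed to 26 and 34 SRPBM in triptolide B and C and were listed at 0 in triptolide A, against 112 and 57 SRPBM in control 1 and 2. The groups did not overlap, at 20 ± 17.8 SRPBM in triptolide libraries (SD, n = 3) and 84.5 ± 38.9 SRPBM in control libraries (SD, n = 2). The log2 fold change was -1.58 ± 0.78 (SE), with an unadjusted p of 0.0736 and an adjusted p of 0.77 by limma. This was the lowest unadjusted p of the 7 hosts tested. On chromosome 1, 5 of the 6 circRNAs share the upstream end 156300790, with partner ends between 156267213 and 156285386. Those 5 together had 0, 3 and 4 reads in triptolide A, B and C, and 11 and 7 reads in control 1 and 2. The most abundant of them, from 156276562 to 156300790, had 26 SRPBM in triptolide B and 26 and 41 SRPBM in control 1 and 2, and was listed at 0 in triptolide A and C. Each of the other 4 was above 0 in 1 library.

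Tdrd9, a tudor protein with a helicase domain that acts in transposon silencing, had higher values in every triptolide library, and this too did not pass the test. Its 7 circRNAs summed to 47, 26 and 146 SRPBM in triptolide A, B and C, and 17 and 16 SRPBM in control 1 and 2. Triptolide C was far above the rest, and each control value was 1 circRNA with 2 reads. The means were 73 ± 64.1 SRPBM in triptolide libraries (SD, n = 3) and 16.5 ± 0.71 SRPBM in control libraries (SD, n = 2). limma gave a log2 fold change of 1.21 ± 0.77 (SE), with an adjusted p of 0.77, and without triptolide C it was 0.66 ± 0.69 (SE). No Tdrd9 circRNA was above 0 in both groups, with 5 seen only in triptolide libraries and 2 only in control libraries. The most abundant, on chromosome 12 from 111996787 to 112015962, had 26 and 52 SRPBM in triptolide B and C and was listed at 0 in triptolide A and in both control libraries. It entered the test only through those 2 triptolide libraries, so no p is given for it, nor for the circRNA from 111992462 to 112001824, which had 28 and 17 SRPBM in triptolide A and C and was listed at 0 in the other 3 libraries.

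**Figure D5:**
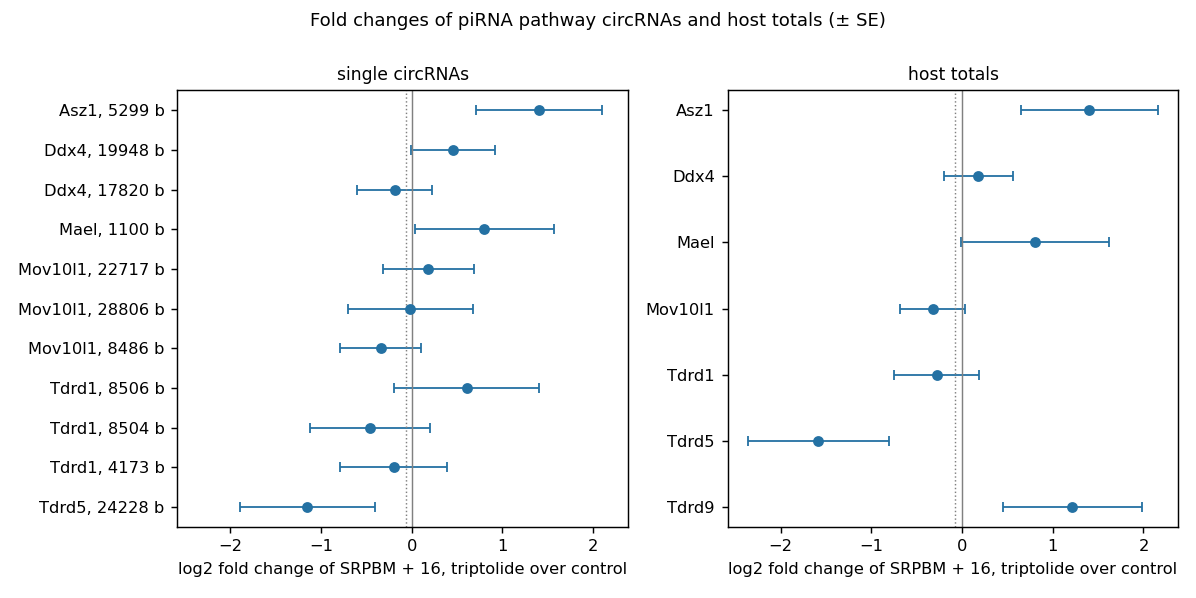
Log2 fold change of triptolide over control (x axis, from limma on log2(SRPBM + 16)) for tested member circRNAs above 0 in a control library (left, labelled by span in bases) and host totals (right), with bars of 1 standard error and a dotted line at the median of all features tested. Host values run from -1.58 for Tdrd5 to 1.40 for Asz1, and no member has an adjusted p under 0.05.

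Mael encodes maelstrom, a germ granule protein needed for transposon silencing and meiosis. Its only circRNA, on chromosome 1 from 166225590 to 166226690, has the shortest span of the 33 at 1100 bases. It had 153, 62 and 17 SRPBM in triptolide A, B and C, and 43 and 16 SRPBM in control 1 and 2. Triptolide A was far above the others and triptolide C was level with control 2, so the groups overlapped. The 16 reads of triptolide A have an exact 95% Poisson interval of 9.15 to 26.0 reads, and the 2 reads of triptolide C one of 0.242 to 7.22 reads, which cover counting error only. Within the triptolide group these intervals do not meet. They belong to its highest and lowest libraries, compared after the values were seen, so nothing more is read from this. By limma the log2 fold change was 0.80 ± 0.77 (SE), with an adjusted p of 0.85. It was 0.22 without triptolide A, 1.40 without triptolide C, 1.24 without control 1 and 0.36 without control 2.

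Asz1 encodes GASZ, a protein of the outer mitochondrial membrane that holds germ granule proteins there. Its only circRNA, on chromosome 6 from 18071965 to 18077264, had 47, 79 and 69 SRPBM in triptolide A, B and C, and 41 SRPBM in control 2 while it was listed at 0 in control 1. Triptolide libraries were all higher, though triptolide A and control 2 both rest on 5 reads. The log2 fold change was 1.40 ± 0.69 (SE), with an unadjusted p of 0.0783 and an adjusted p of 0.68 by limma, the lowest unadjusted p of the 13 tested circRNAs. It was 0.49 ± 0.73 (SE) without control 1 and 2.32 ± 0.89 (SE) without control 2. This circRNA is among the 142 that control 1 lists at 0 despite 5 or more reads in each of the other 4 libraries.

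The pathway beyond the 10 genes gave no call with all 5 libraries. Of 25 other genes of the pathway 9 hosted 35 circRNAs, 7 of these hosts were tested, and 0 passed. Among these 7, Mybl1 entered the test through the control libraries alone, so no median over them is given. The 4 most abundant were Stk31, Gtsf1, Rnf17 and Morc1. Stk31, a tudor-domain protein with a kinase-like domain, had 314, 431 and 416 SRPBM in triptolide A, B and C and 359 and 405 SRPBM in control 1 and 2. Gtsf1, a zinc-finger cofactor of PIWI proteins, had 305, 370 and 347 SRPBM in triptolide libraries and 333 and 353 SRPBM in control libraries. Groups overlapped for both of these host totals. Rnf17, a RING-finger protein with tudor domains, had 208, 324 and 121 SRPBM in triptolide libraries and 289 and 426 SRPBM in control libraries. Morc1, an ATPase needed for transposon silencing in male germ cells, had 105, 115 and 78 SRPBM in triptolide libraries and 184 and 82 SRPBM in control libraries. These also overlapped. Within Gtsf1, the circRNA on chromosome 15 from 103419958 to 103425531, chosen after its values were seen, had 210, 141 and 243 SRPBM in triptolide libraries and 198 SRPBM in control 2, and was listed at 0 in control 1. By limma its log2 fold change was 1.84 with an adjusted p of 0.68. Without control 2, which leaves control 1 alone as control, it was 3.71 with an adjusted p of 1.75e-08, and without control 1 it was -0.03 with an adjusted p of 0.99. Another Gtsf1 circRNA that shares the end 103425531, from 103409624, had 57, 124 and 78 SRPBM in triptolide libraries and 237 and 74 SRPBM in control 1 and 2. Control 1 thus held the highest value of the circRNA from 103409624 and was listed at 0 for that from 103419958, while the Gtsf1 total stayed within the range of the other libraries.

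Among long non-coding RNAs, 2 antisense loci carry the symbol of a host. In that table the 3 triptolide libraries are D, E and replicate 3, and D and E cannot be matched to A, B or C. The locus antisense to Mov10l1, on chromosome 15 from 89046166 to 89048215, contains the downstream end 89046956 used by 2 Mov10l1 circRNAs. Its counts were 11, 14 and 13 in triptolide D, E and 3, and 1 and 7 in control 1 and 2. Every triptolide library was above both control libraries, at 12.5 ± 0.82 CPM, counts scaled to the library total, in triptolide libraries (SD, n = 3) and 3.79 ± 3.9 CPM in control libraries (SD, n = 2). By edgeR's quasi-likelihood test the log2 fold change was 1.65 ± 0.75 (SE), the unadjusted p 0.0366 and the adjusted p 0.19. Without control 1 the log2 fold change was 0.90 and the adjusted p 0.68, and without control 2 they were 3.48 and 0.11 by edgeR. Of 6888 loci tested 501 (7.27%) had an adjusted p under 0.05, 1497 (21.7%) an unadjusted p under 0.05, 1359 (19.7%) were higher in every triptolide library and 18.3% lower, so such a locus is not rare in this table. The locus antisense to Tdrd9, on chromosome 12 from 112067997 to 112080580, had 3, 0 and 2 counts in triptolide libraries and 8 and 3 counts in control libraries, and was too low to be tested. No source used here gives the strand setting of the counting, so antisense reads and those of the host gene itself cannot be told apart.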

How the data were processed

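Testis RNA was depleted of ribosomal RNA and sequenced as strand-specific read pairs, per the labels' protocols. The submitters' processing notes list bedtools 2.17.0, HISAT2 2.0.1, DESeq and HTSeq 0.6.1 with no role, and name the build hg19, which is human. All 33 member circRNAs lie inside their host in RefSeq's mouse GRCm38.p6 gene table, which served for names, strand, gene length and this check only. Coordinates are those of the deposited table. No source used here names the circRNA caller.

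The authors deposited circRNA levels as a score, SRPBM in whole numbers. Values above 0 were taken as reads times a library's worth of 1 read, rounded down. This gave the deposited value exactly, with no tolerance, for 99.96% to 99.98% of entries above 0. Long non-coding RNAs were deposited by the authors in units of expected counts, which were rounded and summed per locus. Their totals were 947298, 1058427 and 1029547 in triptolide D, E and 3, and 964886 and 1071012 in control libraries. The 5 FPKM columns beside them and the mRNA table of 103639 transcripts without gene names were not used.

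limma 3.58.1 (trend) was run on log2(SRPBM + 16) for circRNAs and host sums with values above 0 in 2 or more libraries, and loci were tested with edgeR 4.0.16 (filterByExpr, TMM, quasi-likelihood), in R 4.3.3. Benjamini-Hochberg adjustment ran over all features tested, with a threshold of 0.05. DESeq2 1.42.0 was an alternative for loci, and edgeR on the recovered reads for circRNAs. Scripts were tested on simulated data.

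Values were given for each host's most abundant circRNA, every circRNA above 0 in all 5 libraries and any with an unadjusted p under 0.05, which made 12 circRNAs with 85.6% of the 493 member reads. The other 21 are given by range and count, except 3 given with values after these were seen, from Tdrd1, Mov10l1 and Tdrd9. Of the other pathway genes, the 4 with the highest level were named. Members, lists and rules were chosen with earlier results of these data known.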

Additional observations from a re-analysis of the deposited data

How the results depend on the processing

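No member circRNA, member host or antisense locus passed an adjusted p of 0.05 under any alternative run that gave it one. For 19 results, which are 11 circRNAs given with values, 7 host totals and the Mov10l1 antisense locus, 0 of 230 values passed. Among the 11 circRNAs is the most abundant one of Tdrd9, which entered the test through triptolide libraries alone, so nothing is read from its values. DESeq2 gave no adjusted p for the Mov10l1 antisense locus. The numbers called over the whole tables moved. For all circRNAs, 0 as reported, limma called 1 among those above 0 in all 5 libraries and 36 with no filter, edgeR on the recovered reads without control 1 called 2, and leaving out each library gave 0 to 130. The 130 came without control 2, and 2 without control 1. For host totals, 0 as reported, the number was 1 with no filter and 0 to 48 with a library left out, with 48 without control 2 and 1 without control 1. For lncRNA loci, 501 as reported, it was 261 with DESeq2 and 269 to 588 with a library left out, with 269 without control 1 or triptolide 3 and 279 without triptolide D.

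Direction turned for some log2 fold changes that were not called. The Mov10l1 circRNA from 89018150 to 89046956, at -0.014 by limma as run for the results, was at 0.082 by edgeR on reads. It was at 0.80 by edgeR without control 1 and 0.021 with equal library sums. The Tdrd1 circRNA ending at 56868772, 0.61 as reported, was at -0.063 when joined with its neighbour. The cause was not tested. With a library left out the ranges were -0.57 to 0.19 for the Ddx4 circRNA from 112604487 and -0.17 to 0.53 for the Ddx4 total, -0.66 to 0.0092 for the leading Mov10l1 circRNA and -0.46 to 0.43 for that to 89046956, and -0.42 to 0.022 and -0.53 to 1.74 for the Tdrd1 circRNAs ending at 56864439 and 56868772. The summed level of all 33, 0.04 as reported, ran from -0.14 to 0.26. No paired analysis was possible because nothing in the labels links a triptolide library to a control library. Junction summing and both edgeR fits with the authors' scaling or without control 1 were chosen after seeing the data. Member circRNAs rest on 493 reads in all, and 20 of 33 on 2 to 9 reads in 1 library, which limits what can be detected. Intervals cover counting error only.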

Other observations

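Mybl1 encodes A-MYB, the transcription factor of the pachytene piRNA precursor genes, and was chosen after its values were seen. Its circRNA was listed at 0 in all triptolide libraries, against 26 and 58 SRPBM in control 1 and 2. It passed the filter on low values through the control libraries alone, so no test is given for it.

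Piwil1 had no circRNA to compare, but a long non-coding locus lies within 2000 bases of it. The locus is on chromosome 5 from 128756003 to 128778568, on the same strand as Piwil1, carries the symbols Gm42875 and Rimbp2 in the deposited table, where it is classed as antisense, and was chosen after its values were seen. Counts were 77, 75 and 102 in triptolide D, E and 3, and 19 and 27 in control 1 and 2. All triptolide libraries were higher, at 83.7 ± 14.3 CPM (SD, n = 3) against 22.5 ± 3.9 CPM in control libraries (SD, n = 2). The log2 fold change was 1.89 ± 0.31 (SE), with an adjusted p of 0.00023 by edgeR's quasi-likelihood test, and 1.7e-06 to 0.0062 over the alternatives with edgeR or DESeq2. Which transcripts its reads come from was not tested. Over all 6888 loci tested, 19.7% were higher in every triptolide library and 7.27% had an adjusted p under 0.05 by edgeR. The locus next to Mov10l1 on its downstream side had 106, 99.2 and 137 CPM in triptolide libraries and 80.8 and 124 CPM in control libraries, and its adjusted p was 0.79 by edgeR.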
